A study of Selaginella nipponica with 6 samples.

Results

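Among the unigenes of the lycophyte Selaginella nipponica, 59 of 206768 were picked as steady in erect shoots but variable in prostrate shoots. Their levels lay less than 1.5-fold apart in the libraries of the erect shoots and at least 4-fold apart in those of the prostrate shoots. A unigene is the longest assembled transcript of a gene as the assembler Trinity saw it, and its identifier gives a component (DN and c numbers) and a member of that component (g number). Levels are given as CPM, the rounded estimated count of a unigene per 1000000 counts of its library. The 59 unigenes were those with a mean of at least 20 CPM in each shoot type, a highest prostrate library at least 4 times the lowest, and a highest erect library under 1.5 times the lowest. They are called the variable-prostrate unigenes here. Their spread in each shoot type, and the order of the prostrate libraries that goes with it, were thus set by the choice and are described without a test.

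Prostrate shoots, taken with their emerging roots, and erect shoots, taken with sporangia, were harvested separately from 1 wild population with no treatment, and 3 subsamples of each harvest gave 3 polyA-selected libraries (prostrate 1 to 3 and erect 1 to 3). The subsamples shared a harvest, so every p-value below measures the spread between subsamples, which may be in part technical. The libraries held 15679145 to 17584120 counts in prostrate and 18001140 to 20243961 counts in erect shoots. The labels do not say that libraries of equal number are paired, and they were compared as unpaired.

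Selaginella plants creep by vegetative shoots that branch at the tip and put out root-bearing organs, and raise fertile shoots whose leaves carry sporangia. A subsample of such a shoot system holds tips, older stems, leaves and root tissue in a proportion that can vary from piece to piece. Plant transcripts are known to respond to the time of day, light, wounding and water status. The paper gives a single time of day for the collection of all specimens. In RNA from whole shoots, fewer cells of a type and less RNA per cell cannot be told apart. The files do not pair unigenes with gene names, so the variable-prostrate unigenes are given by identifier, level and place in the assembly, with no role. None of the 18 unigenes that the study's text names was among them, and the 5 of those 18 that reached a mean of 20 CPM in both shoots, 3 SPL (SQUAMOSA promoter-binding protein-like) genes among them, had prostrate ratios of highest to lowest library of 1.29 to 2.20.

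Of 7013 unigenes with a mean of at least 20 CPM in both shoots, 5877 (83.8%) had erect libraries within 1.5-fold of each other, against 3519 (50.2%) whose prostrate libraries lay within 1.5-fold. A prostrate ratio of at least 4 was found in 184 of the 7013 (2.62%), and 59 of these 184 (32.1%) were steady in erect shoots. With the groups exchanged, the same limits picked only 3 unigenes, out of 94 with an erect ratio of at least 4. These 3, which were looked up after their values were seen, were DN106263_c1_g5, DN102092_c0_g1 and DN97060_c0_g1. The median ratio of the highest to the lowest library over the 7013 unigenes was 1.499 in prostrate and 1.21 in erect shoots, so the prostrate libraries lay farther apart in general. Rank correlations between libraries (Spearman's rho) were taken across the 23275 unigenes of the shoot comparison below, which are not independent replicates. Among prostrate pairs rho was 0.932 for prostrate 2 and 3, 0.943 for prostrate 1 and 3, and 0.954 for prostrate 1 and 2. Among erect pairs it ran from 0.951 to 0.967.

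**Figure D1:**
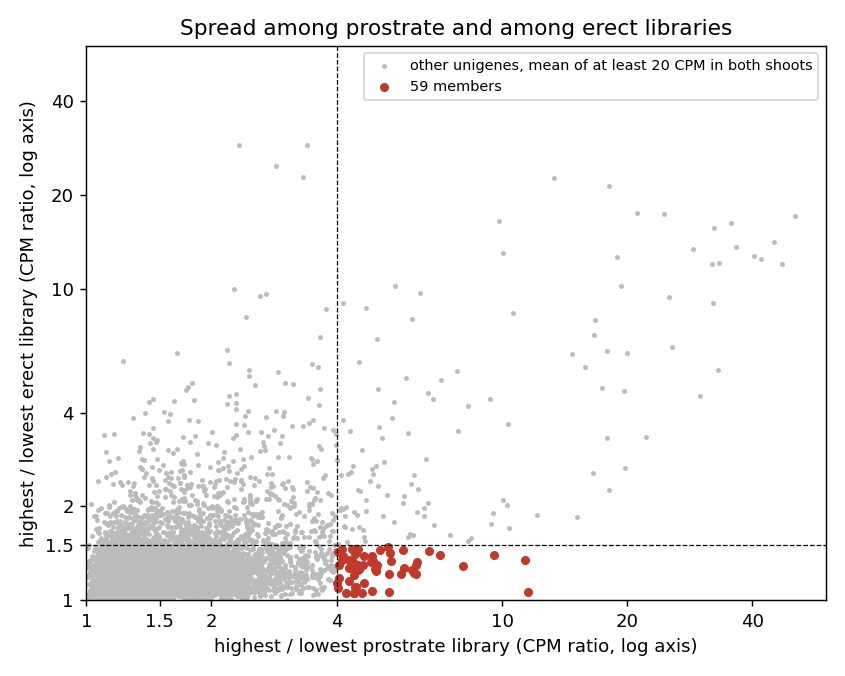
Ratio of the highest to the lowest prostrate library (x axis) against the ratio of the highest to the lowest erect library (y axis) for unigenes with a mean of at least 20 CPM in both shoots, both on log axes. Dashed lines mark the limits of 4 and 1.5, and 3 unigenes fall beyond the axes or have no finite ratio drawn. The 59 variable-prostrate unigenes (red) fill the corner at the lower right, most of them close to the prostrate limit.

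The variable-prostrate unigenes had prostrate ratios of 4.01 to 11.6 with a median of 4.64, and erect ratios of 1.05 to 1.48 with a median of 1.29. The plot of both ratios shows no gap at the limit of 4. There were 23 unigenes with a ratio under 4.5 and 11 with a ratio of at least 6, while 53 further erect-steady unigenes had ratios from 3.5 to 4. Just inside the limit lay DN105228_c0_g2 (4.01), DN87032_c0_g1 (4.02) and DN106130_c1_g1 (4.03), and just outside it lay DN105687_c1_g2 (3.98), DN100417_c0_g1 (3.97) and DN104260_c3_g1 (3.95). At the erect limit, DN99448_c0_g1 (1.48), DN105777_c0_g2 (1.46) and DN101336_c2_g1 (1.46) lay inside, and DN106025_c0_g1 (1.51), DN98615_c1_g2 (1.54) and DN105256_c0_g1 (1.55) outside. These unigenes were moderately abundant, with mean levels of 20.4 to 452 CPM in prostrate and 20.5 to 910 CPM in erect shoots, and the lowest count of any of them in any library was 59. Together they made up 0.50%, 0.513% and 0.456% of the counts of prostrate 1, 2 and 3, and 0.648%, 0.687% and 0.659% of the counts of erect 1, 2 and 3. Their sum thus hardly differed between prostrate libraries, since unigenes low in a given prostrate library were offset by others high in it.

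For each unigene the departing prostrate library was taken as the one beyond the larger of the gaps between the 3 ordered log2 levels. Prostrate 3 departed in 40 of the 59 unigenes, being lower than the remaining pair in 28 and higher in 12. Prostrate 2 departed in 15, being lower in 13 and higher in 2. Prostrate 1 departed in only 4, being higher in 3 and lower in 1. The departure was clear, with the larger gap taking at least 75% of the log2 range, in 21 of 59 unigenes. Of these 21, 18 were unigenes with a low prostrate 3, 2 had a low prostrate 2 and 1 had a high prostrate 2. All 12 unigenes with a high prostrate 3 had their middle library well between the others, the larger gap taking at most 59.4% of the range. A low prostrate 3 was therefore the most frequent pattern among the 59 (47.5%). It was also the most frequent among erect-steady unigenes with a prostrate ratio from 2 to 4 (41.6%) and among the unigenes with a prostrate ratio of at least 4 that were not steady in erect shoots (39.0% of 123), and it was found in 24.7% of all erect-steady unigenes. It was thus not particular to the variable-prostrate unigenes.

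The order of the prostrate libraries was more uniform than the departures. In 28 unigenes prostrate 3 was lowest and prostrate 2 highest, and in 24 prostrate 2 was lowest and prostrate 3 highest. In 5 prostrate 3 was lowest and prostrate 1 highest, in 2 prostrate 1 was lowest and prostrate 3 highest, and the other orders were not seen. Prostrate 1 thus lay between prostrate 2 and 3 in 52 of 59 unigenes (88.1%). The same held for 53.1% of all 5877 erect-steady unigenes, for 48.1% of those with a prostrate ratio under 2, for 76.7% of those with a ratio from 2 to 4, and for 49.6% of 123 unigenes with a prostrate ratio of at least 4 that were not steady in erect shoots. There were 125 of the latter, and 2 with a count of 0 in an erect library were left out of these shares. Prostrate 3 was above prostrate 2 in 26 of the 59 unigenes and in 49.8% of the erect-steady unigenes. These shares are descriptions of the same libraries that chose the unigenes.

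**Figure D2:**
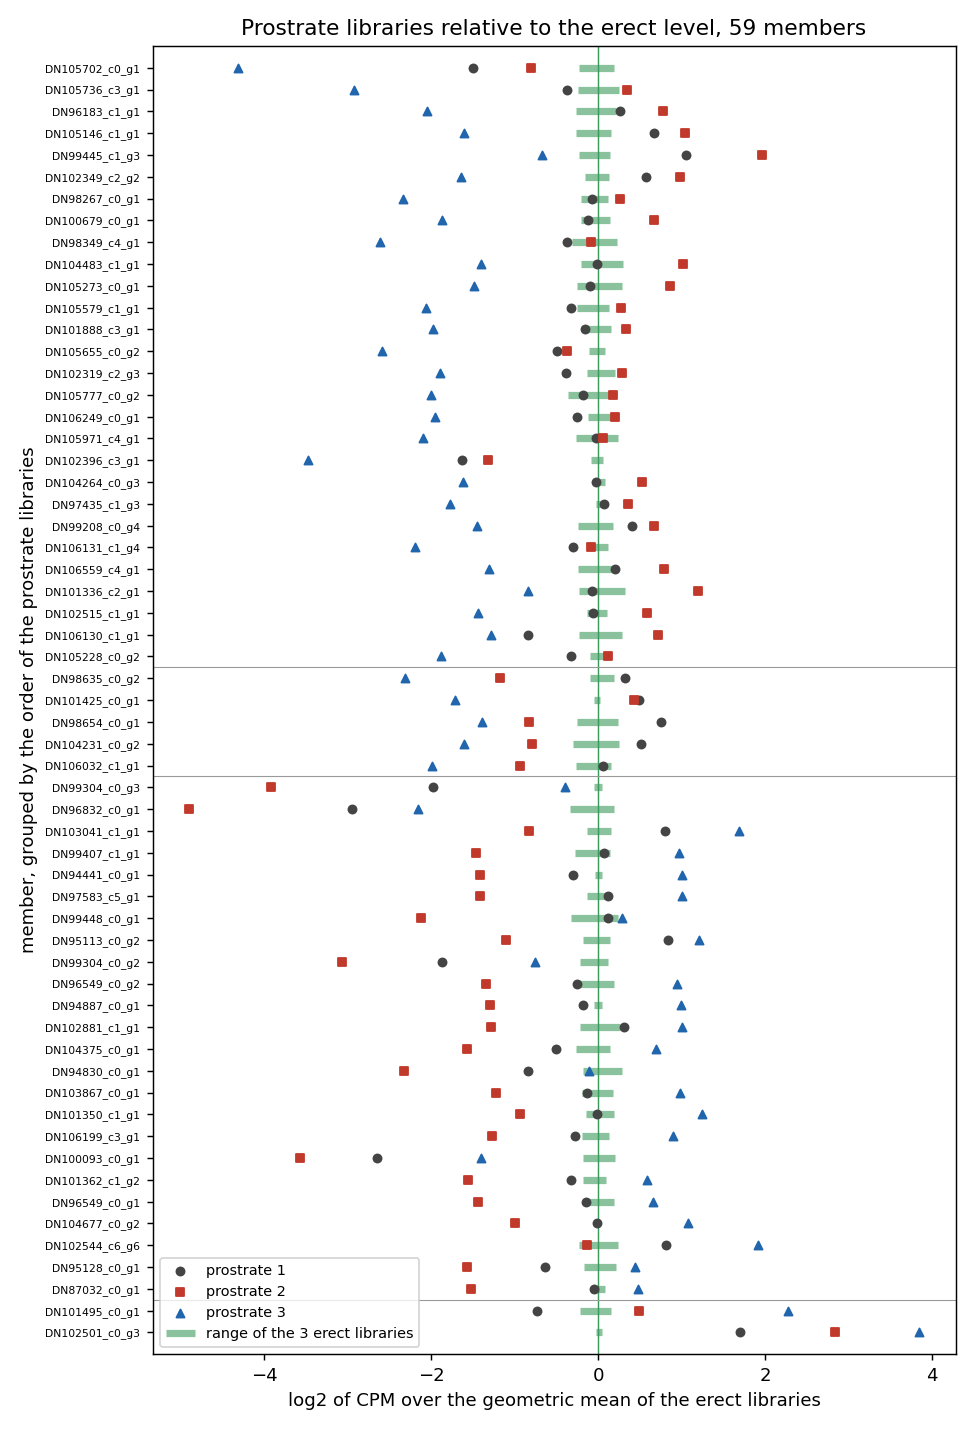
Levels of the 59 variable-prostrate unigenes in prostrate 1 (circles), prostrate 2 (squares) and prostrate 3 (triangles) as the log2 of CPM over the geometric mean of the 3 erect libraries, with 1 unigene per row, grouped by the order of the prostrate libraries. Green bars span the 3 erect libraries. Circles lie between squares and triangles in 52 rows, and mostly near the green bars.

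The choice leaned on single libraries. With prostrate 3 left out, only DN99448_c0_g1 still met the limits, and with prostrate 2 left out 13 unigenes met them. Without prostrate 1, 49 did. Without erect 1, 2 or 3 in turn, the limits were met by 110, 63 and 83 unigenes. Leaving out a library can only lower a ratio of highest to lowest. The ratio limits therefore favoured losses without a prostrate library and gains without an erect one. Prostrate 2 and 3 were the extremes in 52 of 59 unigenes, so the large losses without either follow from that order. DN99448_c0_g1, singled out here after its values were seen, had 42.9, 9.06 and 48.1 CPM in prostrate 1, 2 and 3 and 46.3, 31.3 and 42.2 CPM in erect 1, 2 and 3.

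The largest class, the 28 unigenes with a low prostrate 3, had prostrate ratios of 4.01 to 11.4 and a median place of the erect level at 86.4% of the prostrate range on the log2 scale, where 0 is the lowest and 100 the highest prostrate library. In 23 of the 28 the erect geometric mean lay within 1.5-fold of the geometric mean of prostrate 1 and 2, and in none did it lie within 1.5-fold of prostrate 3. The erect level was a median of 3.80-fold above prostrate 3. DN105702_c0_g1 had 23.4, 38.1 and 3.36 CPM in prostrate 1, 2 and 3, against 75.8, 68.7 and 56.5 CPM in erect 1, 2 and 3. Its ratio of 11.4 was the largest of the class, it was the least abundant of all in prostrate 3 with 59 counts, and all its erect libraries lay above all prostrate ones. DN105736_c3_g1 had 138, 225 and 23.5 CPM in prostrate and 151, 211 and 178 CPM in erect shoots. Here every erect library lay inside the span of prostrate 1 and 2, and only prostrate 3 stood away, at 413 counts against 2265 and 3530.

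Further down the class the picture was similar at other levels. DN105146_c1_g1, the unigene with the highest prostrate mean, had 544, 701 and 112 CPM in prostrate 1, 2 and 3 and 285, 369 and 379 CPM in erect 1, 2 and 3. Its erect libraries fell between prostrate 3 and prostrate 1, below both prostrate 1 and 2. DN96183_c1_g1, among the weakest, had 24.4, 34.6 and 4.89 CPM in prostrate and 16.9, 21.0 and 23.5 CPM in erect shoots, again between prostrate 3 and 1. DN101425_c0_g1 had the steadiest erect level of all 59 unigenes, with 90.4, 90.3 and 85.8 CPM, while its prostrate levels were 125, 119.5 and 27.1 CPM. Prostrate 1 and 2 were nearly equal in it, and the larger gap took 97.1% of its log2 range. DN105228_c0_g2, at the limit of the rule, had 32.0, 43.6 and 10.9 CPM in prostrate and 37.4, 40.6 and 42.5 CPM in erect shoots, so that its erect libraries lay within the span of prostrate 1 and 2.

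In the 13 unigenes with a low prostrate 2 the erect level also lay mostly with the remaining pair, being nearer to prostrate 1 and 3 than to prostrate 2 in 12 of 13. It was within 1.5-fold of the geometric mean of prostrate 1 and 3 in 7 and above the whole prostrate range in 4. DN99304_c0_g3 had 70.8, 18.4 and 212 CPM in prostrate 1, 2 and 3 and 270.2, 287.6 and 279.7 CPM in erect 1, 2 and 3. Its prostrate ratio of 11.6 was the largest of all, and its erect ratio of 1.06 was among the smallest. DN96832_c0_g1 had 33.6, 8.67 and 57.95 CPM in prostrate and 296, 286 and 205 CPM in erect shoots. Prostrate 2 was the lowest library in it, but even prostrate 3 was below every erect library. DN99407_c1_g1 had 83.2, 28.6 and 155 CPM in prostrate and 87.2, 65.5 and 87.1 CPM in erect shoots, which placed the erect libraries around prostrate 1. DN103041_c1_g1 had 35.6, 11.5 and 66.0 CPM in prostrate and 20.3, 18.7 and 22.7 CPM in erect shoots. It was the only unigene of the class whose erect level lay nearer to prostrate 2 than to the remaining pair. DN87032_c0_g1, just inside the limit, had 43.6, 15.7 and 63.1 CPM in prostrate and 44.5, 43.6 and 47.7 CPM in erect shoots, again close to prostrate 1.

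In the 12 unigenes with a high prostrate 3 the erect level lay in the middle of the prostrate range, at a median place of 57.6%. It was a median of 1.69-fold above the geometric mean of prostrate 1 and 2 and a median of 0.505 times prostrate 3. DN94441_c0_g1 had 107, 49.4 and 265 CPM in prostrate 1, 2 and 3 and 136, 131 and 128 CPM in erect 1, 2 and 3. DN94887_c0_g1 had 22.7, 10.5 and 51.0 CPM in prostrate and 26.5, 25.9 and 24.7 CPM in erect shoots. Both had erect ratios of 1.06 to 1.07, with the erect libraries slightly above prostrate 1. DN104677_c0_g2 had 59.6, 30.2 and 127 CPM in prostrate and 58.2, 61.4 and 61.3 CPM in erect shoots, so that prostrate 1 fell among the erect libraries. DN96549_c0_g2 had 23.3, 10.9 and 53.4 CPM in prostrate and 31.7, 23.8 and 28.6 CPM in erect shoots. DN101495_c0_g1, with the largest ratio of the class (8.06), had 16.9, 39.4 and 136 CPM in prostrate and 24.3, 31.3 and 29.3 CPM in erect shoots. It was the only unigene of the class in which prostrate 1 rather than prostrate 2 was lowest.

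DN100093_c0_g1 belonged to the same class and was the second most abundant in erect shoots. It had 139.8, 73.5 and 331 CPM in prostrate and 1004, 864 and 773 CPM in erect shoots, and thus lay above the prostrate range in every erect library. The most abundant, DN99304_c0_g2 of the class with a low prostrate 2, had 248, 107 and 533 CPM in prostrate and 983, 969 and 777 CPM in erect shoots, likewise without overlap.

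The remaining classes were small. In DN98635_c0_g2, with a high prostrate 1, the levels were 93.1, 33.0 and 15.01 CPM in prostrate and 70.3, 84.8 and 69.9 CPM in erect shoots. DN98654_c0_g1 had 67.6, 22.6 and 15.2 CPM in prostrate and 33.5, 40.8 and 47.0 CPM in erect shoots. DN104231_c0_g2 had 198, 79.8 and 45.4 CPM in prostrate and 113, 144 and 164 CPM in erect shoots. In all 3 unigenes of this class the erect libraries fell between prostrate 1 and prostrate 2, and the erect level was nearer to the departing library. A high prostrate 2 was seen in DN101336_c2_g1 (102, 248 and 60.3 CPM in prostrate and 102, 92.0 and 134 CPM in erect shoots) and in DN106130_c1_g1 (21.8, 64.1 and 15.9 CPM in prostrate and 33.2, 37.4 and 47.5 CPM in erect shoots). Their erect levels also lay inside the prostrate range, nearer to prostrate 1 than to prostrate 2 in the former. A low prostrate 1 was seen only in DN102501_c0_g3, with 69.9, 154 and 308 CPM in prostrate and 21.1, 21.1 and 22.2 CPM in erect shoots. Of all 59 unigenes this was the only one whose erect level lay below the prostrate range.

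**Figure D3:**
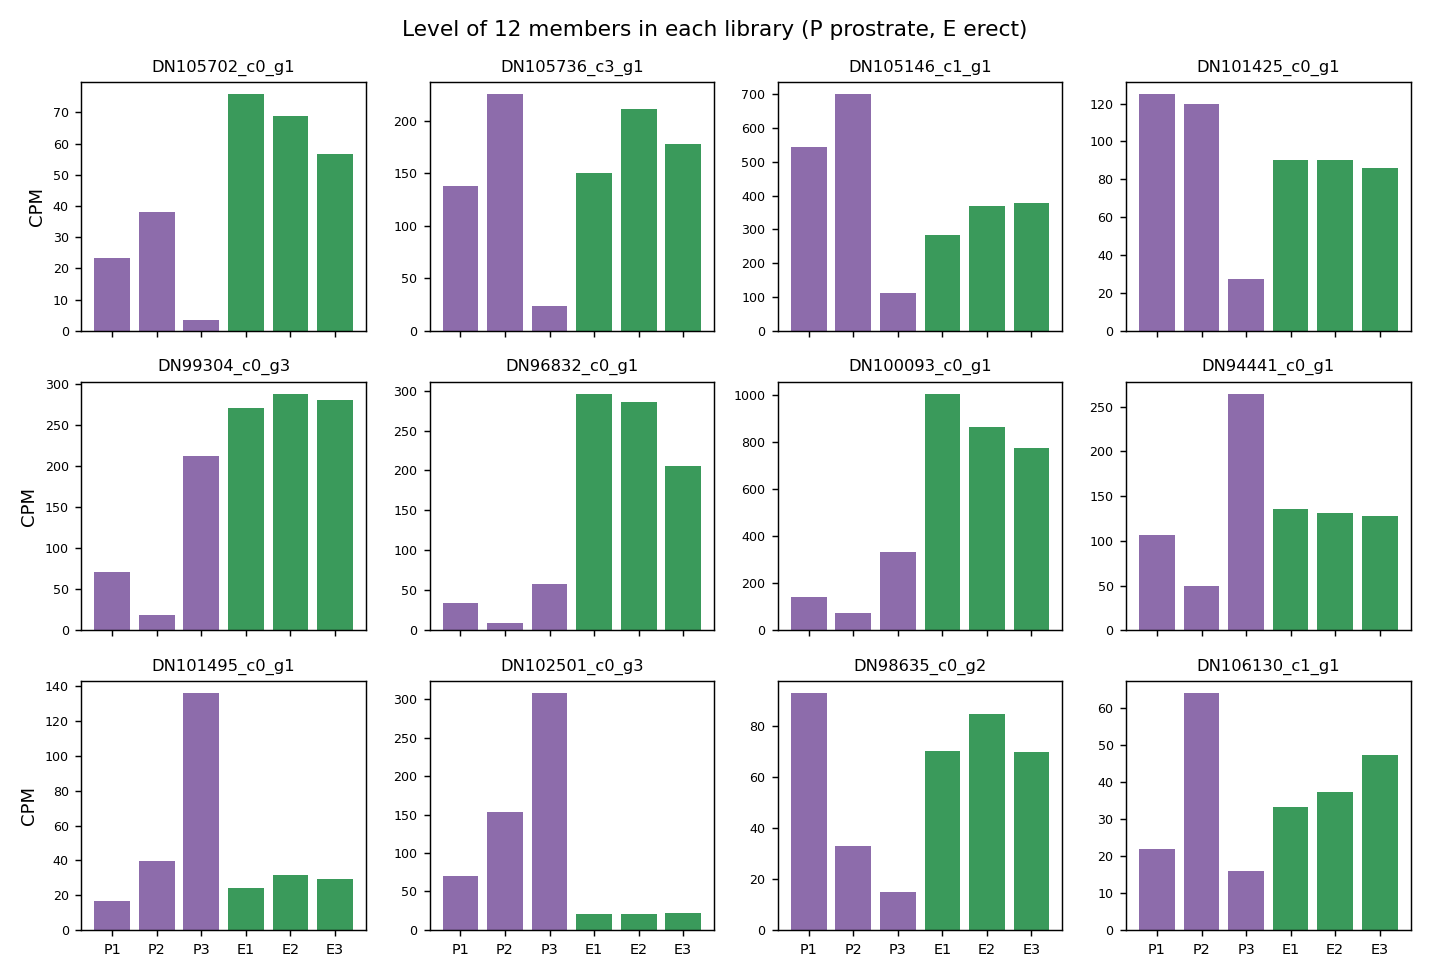
CPM of 12 variable-prostrate unigenes in prostrate 1 to 3 (P1 to P3, purple) and erect 1 to 3 (E1 to E3, green), 1 bar per library, each panel with its own linear axis from 0. The green bars are nearly level in each panel, and the purple bars differ at least 4-fold.

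Over all 59 unigenes the erect level fell inside the prostrate range in 48, above it in 10 and below it in 1. The choice required a prostrate range of at least 4-fold, which favoured a level inside it. Within the range the erect level lay in the upper part, above the midpoint on the log2 scale, in 40 of 48. In most of the 59 the departing library was a low one, which leaves the remaining pair in the upper part of the range. The erect level was nearer to the remaining pair than to the departing library in 49 of 59, and it was within 1.5-fold of the pair's geometric mean in 35 but within 1.5-fold of the departing library in only 3. Prostrate 1 was the prostrate library nearest to the erect level in 37 unigenes, prostrate 2 in 15 and prostrate 3 in 7. A level within 1.5-fold of the erect level was found in prostrate 1 for 42 of 59 unigenes (71.2%), in prostrate 2 for 18 (30.5%) and in prostrate 3 for 5 (8.47%). For all erect-steady unigenes the shares were 79.2%, 74.9% and 64.9%. The median fold between a prostrate library and the erect level, in either direction, was 1.25, 1.92 and 2.81 for the 59 unigenes and 1.23, 1.25 and 1.34 for the erect-steady ones. Among erect-steady unigenes with a prostrate ratio from 2 to 4, the shares within 1.5-fold were 75.7%, 58.6% and 29.1%. Prostrate 1 was about as far from the erect level in the 59 unigenes as in erect-steady unigenes at large, and prostrate 2 and 3 were farther. Extremes at least 4-fold apart cannot both lie within 1.5-fold of 1 level. The greater distance of prostrate 2 and 3, mostly the extremes, was thus favoured by the choice. A library that lies between the extremes is nearer to most levels inside the range by construction, and these counts are given as a description.

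**Figure D4:**
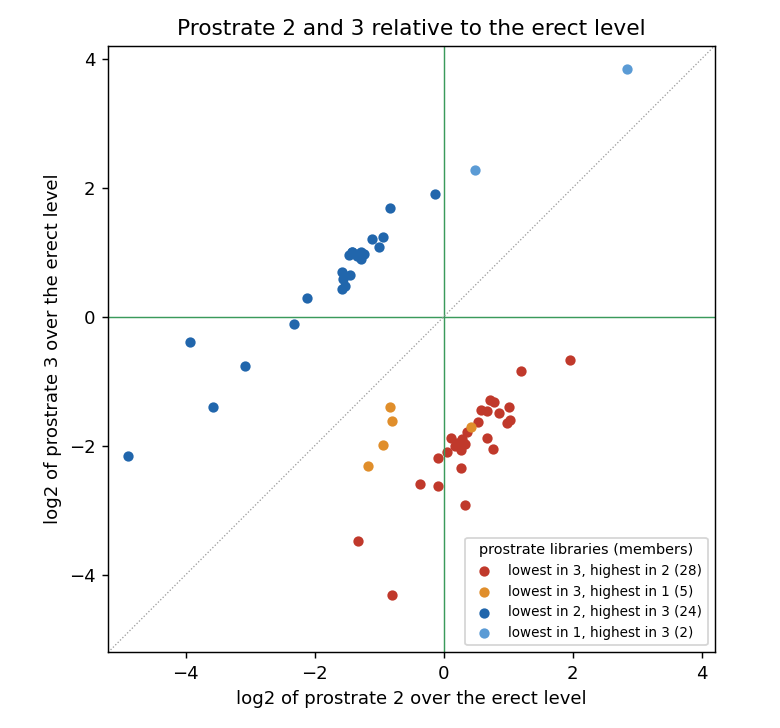
Log2 of prostrate 2 (x axis) and of prostrate 3 (y axis) over the geometric mean of the erect libraries for the 59 variable-prostrate unigenes, coloured by the order of the prostrate libraries, with green lines at the erect level and a dotted line where both are equal. There are 24 unigenes with prostrate 2 above and prostrate 3 below the erect level, 19 with the reverse, 14 with both below and 2 with both above.

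The plot of prostrate 2 against prostrate 3 shows both libraries on opposite sides of the erect level in most unigenes. Prostrate 2 was above and prostrate 3 below it in 24 unigenes, and prostrate 2 was below and prostrate 3 above it in 19. Both were below in 14 and both above in 2. Summed over the 28 unigenes with prostrate 3 lowest and prostrate 2 highest, the level was 2652, 3976 and 759 CPM in prostrate 1, 2 and 3 and 2393, 2888 and 2887 CPM in erect 1, 2 and 3. Summed over the 24 unigenes with the opposite order, it was 1666, 645 and 3229 CPM in prostrate and 3647, 3454 and 3164 CPM in erect shoots. In the former sum prostrate 3 lay far below all other libraries and prostrate 2 above them. In the latter sum prostrate 3 fell among the erect libraries and prostrate 2 was lowest, and DN99304_c0_g2 and DN100093_c0_g1 made the largest contributions in erect shoots.

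The erect libraries, although steady, most often had erect 1 lowest in the larger of these groups, while erect 3 was highest in 14 and erect 2 in 10. Erect 1 was the lowest erect library in 21 of the 28 unigenes with prostrate 3 lowest and prostrate 2 highest. The share was 52.9% among the 1655 erect-steady unigenes with that prostrate order, and 66.1% among the 380 of them with a prostrate ratio from 2 to 4. In the 24 unigenes with the opposite prostrate order erect 1 was lowest in 8 and highest in 12, against 39.6% and 36.7% of the 1463 erect-steady unigenes with that order. Among the unigenes with a prostrate ratio of at least 4 that were not steady in erect shoots, erect 1 was lowest in 20 of 20 with prostrate 3 lowest and prostrate 2 highest, and highest in 32 of 41 with the opposite order.

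Unigenes that mark either shoot type were chosen on these same libraries, so that their low level in the other shoot type was fixed by the choice and nothing about admixed tissue is read from it. The 4 erect markers (DN102912_c0_g5, DN100944_c0_g3, DN97709_c1_g1 and DN97881_c0_g2) summed to 24, 11 and 30 counts in prostrate 1, 2 and 3, against 177899 to 236581 counts in erect libraries. DN97881_c0_g2 was at 0 in prostrate 2 and 3. The 5 prostrate markers summed to 1302, 879 and 1193 CPM in prostrate 1, 2 and 3, and to 39.9 to 52.3 CPM in erect libraries. The part of root, stem or leaf tissue in the departures was not tested, since no marker of these tissues is annotated here.

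The shoot types were compared with edgeR's quasi-likelihood test over 23275 unigenes, and a unigene was called a DEG (differentially expressed gene) where its adjusted p was under 0.05 and its log2 fold change was above 1 in either direction. Over all unigenes tested, 3083 were DEGs (13.2%), 1847 higher in erect shoots (7.94%) and 1236 higher in prostrate shoots (5.31%), and among the 7013 unigenes with a mean of at least 20 CPM in both shoots the share was 7.71%. All 59 variable-prostrate unigenes were tested, and 4 were DEGs, 3 higher in erect and 1 higher in prostrate shoots. An unadjusted p under 0.05 was found in 6 of the 59, against 29.3% of all unigenes tested and 27% of the 7013. DESeq2 called 5 of the 59, the same 4 among them, against 10.1% of all unigenes with an adjusted p. The choice required a wide spread among prostrate libraries, and that spread enters the error of this test, so nothing is read from the low count. The median log2 fold change of erect over prostrate shoots was 0.05 over the 59 unigenes, 31 of them positive, against -0.01 over all unigenes tested. In 9 of the 59 the 2 shoot types did not overlap, the erect libraries being higher in 8 and lower in 1. Of all unigenes tested, 36.7% did not overlap (23.2% with erect higher and 13.5% with erect lower). Those were not held to the minimum of 20 CPM in both shoots. The wide prostrate range required by the choice also favours overlap, so nothing is read from this difference either.

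DN102501_c0_g3 was the only one higher in prostrate shoots, at 177 ± 121 CPM (SD, n = 3) against 21.5 ± 0.648 CPM (SD, n = 3). Its log2 fold change of erect over prostrate shoots was -3.15 (SE 0.497, edgeR adjusted p = 0.00601). It kept its call with edgeR adjusted p-values of 0.00305 to 0.0337 on leaving out each library in turn.

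DN96832_c0_g1 was higher in erect shoots, at 263 ± 49.7 CPM against 33.4 ± 24.6 CPM (SD, n = 3 each), with a log2 fold change of 2.88 (SE 0.591, edgeR adjusted p = 0.0165). Without prostrate 1 the edgeR adjusted p was 0.0730. DN100093_c0_g1 was higher in erect shoots, at 880.2 ± 116 CPM against 181 ± 133 CPM (SD, n = 3 each), with a log2 fold change of 2.18 (SE 0.494, edgeR adjusted p = 0.0236). Its call was lost without prostrate 1 (edgeR adjusted p = 0.0965) and without erect 1, 2 or 3 (0.0667, 0.0618 and 0.0552). DN102396_c3_g1 had 24.4, 30.1 and 6.77 CPM in prostrate 1, 2 and 3 and 76.7, 78.6 and 71.3 CPM in erect 1, 2 and 3, with a log2 fold change of 1.77 (SE 0.482, edgeR adjusted p = 0.0469). The edgeR adjusted p was 0.114 without prostrate 1 and 0.102, 0.109 and 0.0968 without erect 1, 2 and 3. Thus 3 of the 4 calls were lost on leaving out 1 library or another, whereas the direction stood in each of them. Without an erect library the log2 fold change hardly moved, at 2.09 to 2.26 for DN100093_c0_g1 and 1.76 to 1.81 for DN102396_c3_g1. Those losses therefore came with fewer libraries in the test and not with a smaller difference. Without prostrate 3 all 3 kept their calls (edgeR adjusted p = 0.0162, 0.00444 and 0.00824 in the order above).

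The named unigenes with smaller differences, still above 1 on the log2 scale, did not pass. DN99304_c0_g2 had a log2 fold change of 1.52 (SE 0.499, edgeR adjusted p = 0.0841) and DN99304_c0_g3 of the same component 1.38 (SE 0.704, edgeR adjusted p = 0.246), although neither overlapped between the shoots. Both passed without prostrate 3, at log2 fold changes of 2.22 and 2.52. DN105702_c0_g1 had a log2 fold change of 1.51 (SE 0.695, edgeR adjusted p = 0.200), and DN101495_c0_g1 one of -1.29 (SE 0.651, edgeR adjusted p = 0.241). With unigenes of low count kept in the fit, these 4 passed the threshold.

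The 59 unigenes came from 57 components of the assembly, since DN99304_c0_g2 and g3, and DN96549_c0_g1 and g2, shared a component. Estimated counts split reads among similar transcripts, and 54 of the 59 unigenes (91.5%) had a count that was not whole in at least 1 library, against 96.5% of the 7013 unigenes. A component of a single unigene was seen in 26 of 57. In 25 components there was at least 1 further unigene with a mean of at least 1 CPM, 39 such unigenes in all. Of 38 with a level in both prostrate 2 and 3, 30 differed between these libraries in the same direction as their variable-prostrate partner, and 9 of the 39 had a prostrate ratio of at least 4 themselves. Among the 17 with a mean of at least 20 CPM in both shoots, 14 had the same direction, with ratios of 1.18 to 3.68. A partner at this level that was steady in erect shoots and had a ratio of at least 4 would itself be a variable-prostrate unigene. Such unigenes were not counted as partners, so the upper end of these ratios was set by the choice for erect-steady partners.

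When the counts of each component were added up, the sum met both ratio limits in 7 of the 25 components with a partner of at least 1 CPM. The other 32 components hold a single unigene, only partners below 1 CPM or, in DN96549_c0, 2 variable-prostrate unigenes and no other. Their sums are close to the variable-prostrate unigenes by construction and are not counted. Among these 25, the sum had a prostrate ratio of at least 4 in 7, of 2 to 4 in 11 and under 2 in 7. In these 25 the sum was thus often flatter than the variable-prostrate unigene. That unigene was chosen for its wide ratio and the partners were not, so a flatter sum was favoured by the choice. In the 7 with a sum ratio under 2, the largest partner's mean level ran from 78.3% (DN105228_c0_g1) to 12041% (DN101362_c1_g1) of that of the variable-prostrate unigene. The part of read assignment in these cases was not tested.

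**Figure D5:**
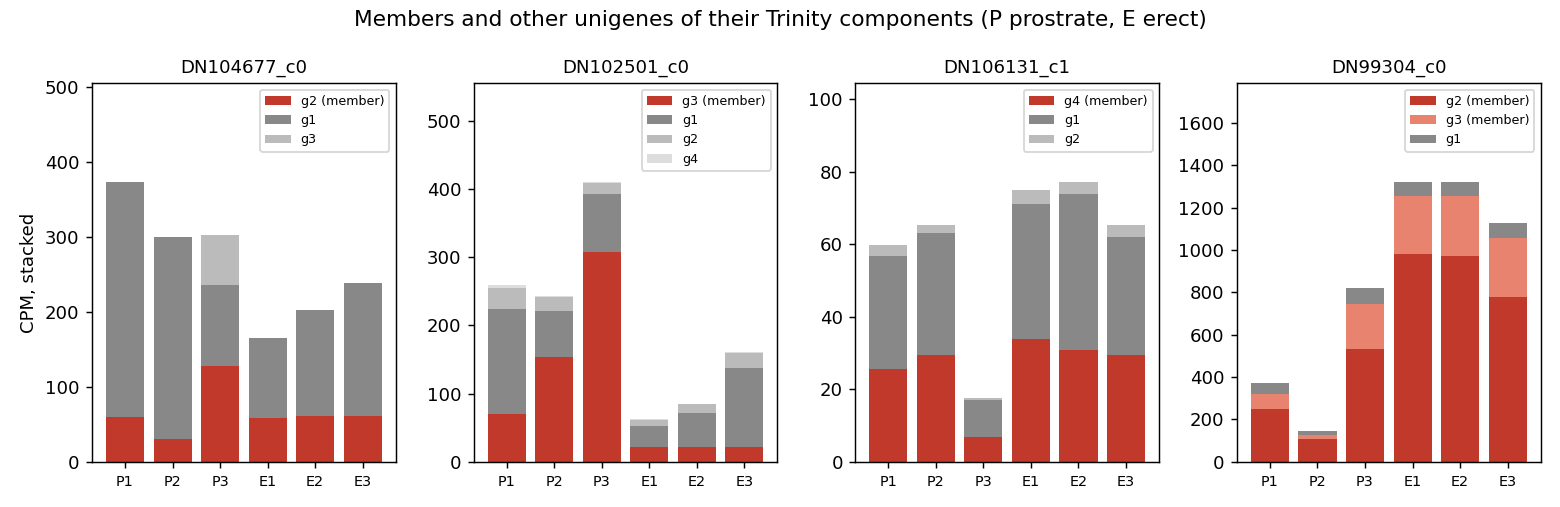
Stacked CPM of the unigenes of 4 components in prostrate 1 to 3 (P1 to P3) and erect 1 to 3 (E1 to E3), with variable-prostrate unigenes in red and other unigenes of the component in grey, each panel on its own linear axis from 0. In DN104677_c0 the stack is nearly level among prostrate libraries, and in DN99304_c0 it follows the red unigenes.

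Examples of both kinds were picked after their values were seen. In DN104677_c0, where g2 was the variable-prostrate unigene, g1 had 315, 270.0 and 108 CPM in prostrate 1, 2 and 3, and g3 had 67.4 CPM in prostrate 3 and 0 in the other 5 libraries. The sum of the component was 374, 300.2 and 303 CPM in prostrate libraries, a ratio of 1.25, so the high prostrate 3 of DN104677_c0_g2 was offset by a low prostrate 3 of its partner g1. In DN102501_c0, the partner g1 had 154, 67.5 and 84.5 CPM in prostrate and 31.7, 50.4 and 116 CPM in erect shoots. The sum of that component was 259, 243 and 411 CPM in prostrate and 62.8, 85.2 and 161 CPM in erect shoots, so that neither the low prostrate 1 nor the steady erect level of DN102501_c0_g3 held for the component. In DN105228_c0 the sum had a prostrate ratio of 1.39.

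Other components came closer to the pattern of their variable-prostrate unigenes or kept it. In DN106131_c1, g1 had 31.2, 33.6 and 10.3 CPM in prostrate and 37.0, 42.9 and 32.3 CPM in erect shoots beside the variable-prostrate g4, and the sum of 60.1, 65.4 and 18.0 CPM had a prostrate ratio of 3.64, just under the limit. In DN99304_c0 the sum over its 3 unigenes was 374, 146 and 820 CPM in prostrate and 1321, 1323 and 1126 CPM in erect shoots, a prostrate ratio of 5.61. The other unigene of DN99304_c0, DN99304_c0_g1, had 55.3, 20.5 and 74.0 CPM in prostrate and 68.3, 66.1 and 69.5 CPM in erect shoots, so all 3 unigenes were lowest in prostrate 2.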

How the data were processed

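RNA from 3 subsamples each of prostrate and erect shoots was sequenced. The authors assembled the reads with Trinity 2.0.6, and the submitters' processing notes name Trimmomatic 0.36 and HISAT2 2.1.0. The deposited table holds estimated counts per unigene, not normalized, for all 6 libraries, and the sources used here do not name the counting program. No column of sample values was left out. Counts were rounded, and CPM was computed on column totals (15679145 to 20243961 counts). At these depths the lowest count of a variable-prostrate unigene in any library was 59, which limits its precision by counting error alone.

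Shoots were compared with edgeR 4.0.16 in R 4.3.3 (quasi-likelihood test, TMM scaling, filterByExpr at its minimum count of 10 and total of 15, Benjamini-Hochberg adjustment over 23275 unigenes). DESeq2 1.42.0, other scalings, filters, limits, component sums, a replicate block and the omission of each library were the alternatives. The code was tested on simulated data. Named unigenes were the 4 with the largest prostrate ratio in each class of departing library and direction, the 3 most abundant, the 3 on each side of the limit of 4, the 5 largest DEGs (only 4 were found) and the 3 steadiest in erect shoots. The unigenes beside the erect limit of 1.5 were named in addition. The unigenes, marker lists and rules were chosen with earlier results of these data known.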

Additional observations from a re-analysis of the deposited data

How the results depend on the processing

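The number of variable-prostrate unigenes depended on single libraries and on the limits. It was 59 as reported, 96 and 28 with a minimum mean of 10 and 50 CPM, and 210 and 21 with a prostrate ratio of at least 3 and at least 5. When single libraries were left out it was 1 without prostrate 3, 13 without prostrate 2 and up to 110 without erect 1. The ratio limits favoured losses without a prostrate library and gains without an erect one. With TMM-scaled totals it was 60 (54 shared with the 59), with DESeq2 size factors 62 (51 shared), with a pseudocount of 0.5 CPM 55 (54 shared), with erect limits of 1.4 and 1.6 it was 48 and 66, and with counts summed over components 42. The next counts are for TMM-scaled totals, DESeq2 size factors and component sums in that order. A low prostrate 3 was found in 33, 34 and 21 unigenes (28 as reported), and a low prostrate 2 in 11, 10 and 10 (13 as reported). A high prostrate 3 was found in 10, 12 and 7 (12 as reported). The erect level lay inside the prostrate range in 51, 54 and 35 (48 as reported) and above it in 8, 7 and 7 (10 as reported). Prostrate 1 lay between prostrate 2 and 3 in 37 of 42 unigenes with component sums and in 55 of 62 with DESeq2 size factors. It was nearest to the erect level in 25 of 42 with component sums and in 46 of 60 with TMM-scaled totals. These were the lowest and highest counts over the alternatives of scaling, rounding, pseudocount and component sums. Those alternatives were added for these counts after seeing the data.

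DEGs higher in prostrate shoots numbered 1236 as reported, 2167 with DESeq2, 3468 with no filter, 703 with a mean count of at least 50, and 637 to 1360 on leaving out each library. DEGs higher in erect shoots numbered 1847, 2091 with DESeq2, 1016 with a mean count of at least 50, and 1265 to 1687 on leaving out each library. Among the variable-prostrate unigenes, 3 DEGs were higher in erect shoots, 6 with no filter, and 0 (without prostrate 1) to 5 (without prostrate 3) on leaving out each library. In prostrate shoots 1 was higher, 2 with DESeq2, 5 with no filter, and 1 to 4 on leaving out each library. DN102396_c3_g1 lost its call with DESeq2 size factors in edgeR, with a mean count of at least 50 and with the block. No log2 fold change named here turned its sign. The causes were not tested.

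Deviations of libraries with the same number from their group means correlated at -0.32, 0.05 and -0.14 for numbers 1, 2 and 3. For unlike numbers the correlations ran from -0.15 to 0.24. Pairing by number was thus not seen. Deviations within a group of 3 are tied to each other, so these values cannot settle whether equal numbers shared a step of preparation. With the replicate block, 1152 DEGs were higher in erect and 701 in prostrate shoots, and 3 of the 4 variable-prostrate DEGs were called. With 3 subsamples per shoot type of 1 harvest each, a departing prostrate library rests on a single library.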
